A study of Homo sapiens with 2 samples.

Results

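The 8 genes described here encode the catalytic subunits of the proteasome that can replace one another and the 2 subunits of an inducible activator. They were read in GM12878, a human B-lymphoblastoid line immortalised by Epstein-Barr virus, in 2 direct RNA libraries (replicates 1 and 2; kit SQK-RNA002, flow cell FLO-MIN106D). The libraries form 1 group, with no treatment, dose or time in the labels, so no condition was compared. The inducible genes are PSMB8, PSMB9, PSMB10, PSME1 and PSME2, and the constitutive genes are PSMB5, PSMB6 and PSMB7. All 8 symbols were found in the table of reads per transcript model, out of 16645 annotated genes with a read. They accounted for 504 of 237608 models, of which 399 belonged to the inducible and 105 to the constitutive genes. The members were chosen by name and not by a measured value, though with earlier results of these data known.

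The proteasome is a barrel of stacked rings whose inner chamber cuts proteins into peptides. In the constitutive form PSMB6, PSMB7 and PSMB5 carry the caspase-like, trypsin-like and chymotrypsin-like activities. Interferon and lymphoid cell types add PSMB9, PSMB10 and PSMB8, which take the places of PSMB6, PSMB7 and PSMB5 in new particles and shift the peptides toward those that fit MHC class I molecules. PSME1 and PSME2 form the PA28 cap, which opens the barrel, and B cells are known for high immunoproteasome content.

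Each catalytic subunit is made with a leader that is cut off to expose a threonine, the residue that attacks the peptide bond. To show how the interchangeable pairs relate, the 60 coding bases from that threonine codon (in capitals) are given for the most abundant known model of each gene, read from the GENCODE release 29 transcripts (GRCh38). The codon was located as the first of 2 threonine codons that follow a glycine codon and precede a threonine or isoleucine codon. It was codon 73 of 276 in PSMB8, 60 of 263 in PSMB5, 21 of 219 in PSMB9, 35 of 239 in PSMB6, 40 of 273 in PSMB10 and 44 of 277 in PSMB7. In the order printed, the spans are chr6:32842961-32843020 (minus strand), chr14:23033636-23034704 (minus, with an intron of 1009 bases inside), chr6:32856138-32856197 (plus), chr17:4796728-4796787 (plus), chr16:67936280-67936424 (minus, intron of 85 bases) and chr9:124413973-124414868 (minus, intron of 836 bases).
PSMB8: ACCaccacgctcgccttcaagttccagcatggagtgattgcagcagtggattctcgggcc
PSMB5: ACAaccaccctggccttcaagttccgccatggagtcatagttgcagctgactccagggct
PSMB9: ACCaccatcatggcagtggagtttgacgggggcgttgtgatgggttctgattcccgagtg
PSMB6: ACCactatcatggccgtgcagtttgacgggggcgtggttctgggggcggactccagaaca
PSMB10: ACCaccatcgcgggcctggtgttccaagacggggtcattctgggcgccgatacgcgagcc
PSMB7: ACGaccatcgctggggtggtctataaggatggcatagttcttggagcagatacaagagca
Aligned base by base with no gap, PSMB8 and PSMB5 shared 45 of the 60 bases, PSMB9 and PSMB6 shared 46, and PSMB10 and PSMB7 shared 40. The other 12 pairings of the 6 genes shared 28 to 37 bases. In these stretches each inducible gene was thus closest in sequence to the constitutive gene whose product it replaces.

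The start regions of the inducible genes were searched for the letters of the interferon-stimulated response element (ISRE), GAAANNGAAA, and of the interferon-gamma-activated GAS element, TTCNNNGAA, on both strands. RefSeq windows (GRCh38.p14) of 250 bases before to 50 after a gene start were at hand for 6 of the 8 members, in 8 windows, since PSMB8 and PSMB5 each have 2 starts. The ISRE letters were in 4 of the 5 inducible genes, in each case as GAAAGCGAAA, and in 3.57% of the 35116 windows of all genes. To show where they lie, 30 bases before and 30 after the start are printed on the strand of the gene, with the match in capitals; TTTCGCTTTC is the same element on the opposite strand. The windows are chr6:32844018-32844077 (minus strand) for PSMB8 at the start of its most abundant model, chr16:67936821-67936880 (minus) for PSMB10, chr14:24136164-24136223 (plus) for PSME1, chr14:24146581-24146640 (minus) for PSME2 and chr6:32854162-32854221 (plus) for PSMB9, which is shown without a match.
PSMB8: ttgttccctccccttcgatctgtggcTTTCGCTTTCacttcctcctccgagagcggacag
PSMB10: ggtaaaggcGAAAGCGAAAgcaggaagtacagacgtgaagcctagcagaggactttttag
PSME1: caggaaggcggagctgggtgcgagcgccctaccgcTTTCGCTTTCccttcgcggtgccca
PSME2: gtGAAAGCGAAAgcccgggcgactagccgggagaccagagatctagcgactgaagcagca
PSMB9: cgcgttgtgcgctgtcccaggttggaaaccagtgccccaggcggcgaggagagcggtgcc
Each match lay within 28 bases of the RefSeq start. The positions were -4 to 6 in PSMB8, -21 to -12 in PSMB10, 6 to 15 in PSME1 and -28 to -19 in PSME2. Among these genes only PSMB8 has a most abundant known model that begins at this start. PSME2-201 begins upstream, at 24147221 against a RefSeq start at 24146610. PSMB10-201 begins at 67937087 against 67936850, and PSME1-201 at 24136158 against 24136194, both also upstream. Windows of 60 bases held the letters in 0.723% of all starts. The windows of PSMB9, of the upstream start of PSMB8 and of both starts of PSMB5 did not contain these letters in 300 bases. The GAS letters were in PSMB8 (at -65 to -57) and PSMB5 (at -158 to -150 and -15 to -7) and in 7.66% of all windows. These matches are a description of the letters and not of binding.

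Replicate 1 held 1360368 reads and replicate 2 held 1510998, so that 1 read equals 0.735 and 0.662 CPM (read counts scaled by the library total). Direct RNA reads are single molecules without PCR copies, and the intervals below cover counting error only. The labels do not say whether the replicates came from separate cultures, so every test compares these 2 libraries and may measure technical spread. The labelled line was checked against cell type markers. All 6 B cell markers were read, with a summed level of 8941 and 9250 CPM, of which CD74 alone made up 7766 and 8088. The others had mean levels from 43.0 CPM (PAX5) to 684 CPM (CD79A). The summed reads of 3 T cell markers were 5 and 16 (CD3D and CD3G at 0), of 3 myeloid markers 4 and 8 (LYZ at 0), of 3 epithelial markers 0 and 6 and of 2 hepatocyte markers 0 and 1, and 2 erythroid markers were at 0. COL1A1, the fibroblast marker, had 2 and 3 reads. The 8 proteasome genes together made up 0.303% of replicate 1 (0.294 to 0.313%, Wilson 95% limits) and 0.264% of replicate 2 (0.256 to 0.272%).

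Among the inducible catalytic subunits PSMB8 was the most abundant. PSMB8 (chromosome 6, 32840717 to 32844703, minus strand, in the MHC region), the chymotrypsin-like replacement subunit, had 603 and 706 reads, or 443 CPM (exact Poisson interval 409 to 480) and 467 CPM (433 to 503). PSMB9 (chromosome 6, 32844136 to 32859585, plus strand), which takes the place of PSMB6, had 402 and 397 reads, or 296 CPM (267 to 326) and 263 CPM (238 to 290). PSMB10 (chromosome 16, 67934502 to 67937087, minus strand), which takes the place of PSMB7, had 465 and 385 reads, or 342 CPM (311 to 374) and 255 CPM (229.98 to 282). PSMB8 lay above both of the others in each library, while PSMB9 and PSMB10 overlapped: PSMB10 was higher in replicate 1 and PSMB9 was higher in replicate 2.

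The activator genes had the highest levels of the 8. PSME1 (chromosome 14, 24136158 to 24138967, plus strand), the PA28 alpha chain, had 733 and 723 reads, or 539 CPM (501 to 579) and 478 CPM (444 to 515). PSME2 (chromosome 14, 24143362 to 24147570, minus strand), the PA28 beta chain, lies 4394 bases from PSME1. It had 1056 and 869 reads, or 776 CPM (730.1 to 825) and 575 CPM (538 to 615). PSME2 exceeded PSME1 in both libraries, with 1.44 times as many reads in replicate 1 (1.31 to 1.59) and 1.20 times in replicate 2 (1.09 to 1.33). Copies of PSME2 elsewhere in the genome can share its reads: PSME2P2 (chromosome 13) was listed with 16 and 26 reads and PSME2P6 (chromosome 10) with 0 and 4, so the assignment of PSME2 reads is uncertain.

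The constitutive subunits had the 3 lowest levels. PSMB5 (chromosome 14, 23016543 to 23035230, minus strand), the chymotrypsin-like subunit, had 200 and 177 reads, or 147 CPM (127 to 169) and 117 CPM (101 to 136). PSMB6 (chromosome 17, 4796144 to 4798503, plus strand), the caspase-like subunit, had 329 and 359 reads, or 242 CPM (216 to 269) and 238 CPM (214 to 263). PSMB7 (chromosome 9, 124353466 to 124415444, minus strand), the trypsin-like subunit, had 338 and 367 reads, or 248 CPM (223 to 276) and 243 CPM (219 to 269). PSMB6 and PSMB7 were nearly the same in both libraries, and PSMB5 was below them in both.

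**Figure D1:**
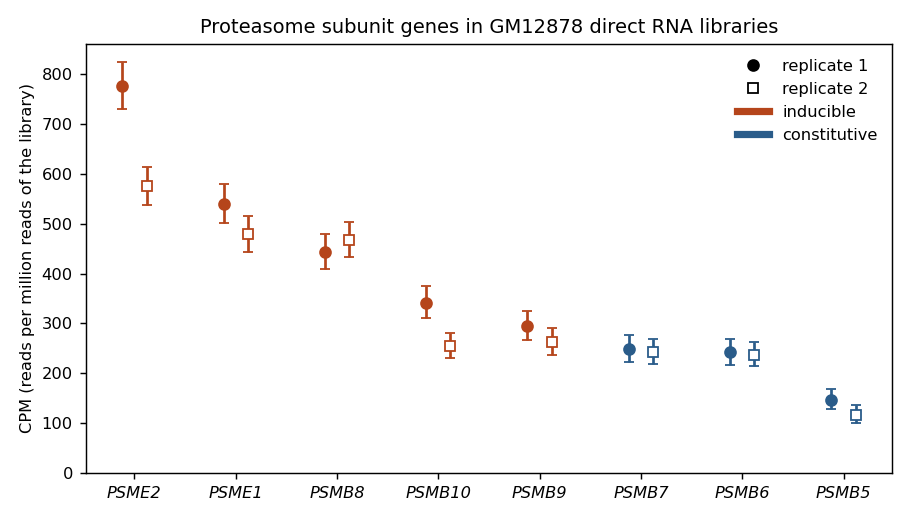
Level of each gene in CPM (vertical axis, reads scaled by the library total) in replicate 1 (filled circles) and replicate 2 (open squares), with exact Poisson 95% intervals; inducible genes are red and constitutive genes blue. PSME2 and PSMB10 show the widest gaps between libraries, and PSMB5 lies lowest, at 147 and 117 CPM.

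By mean CPM (± SD, n = 2) the order was PSME2 at 676 ± 142, PSME1 at 509 ± 42.7, PSMB8 at 455 ± 17.0, PSMB10 at 298 ± 61.5, PSMB9 at 279 ± 23.2, PSMB7 at 246 ± 3.94, PSMB6 at 240 ± 3.01 and PSMB5 at 132 ± 21.1. These means ranked from 192 (PSME2) to 1063 (PSMB5) among all annotated genes, and the median of the 10634 genes with at least 10 reads was 22.1 CPM. The neighbours PSMB10 and PSMB9 did not differ beyond their spread. PSMB7 and PSMB6 did not differ beyond counting error in either library (1.03 and 1.02 times, intervals spanning 1). In replicate 2 the same held for PSME1 over PSMB8 (1.02 times, 0.922 to 1.14) and for PSMB9 over PSMB7 (1.08 times, 0.936 to 1.25).

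A division by length was tried as a sensitivity check. Each direct RNA read is a single molecule whatever its length, so this scale does not correct the CPM. Divided by the read-weighted length of the known models, which ran from 782 bases for PSMB9 to 1382 for PSME2, part of the order changed. The mean CPM per kilobase (± SD, n = 2) was 505 ± 42.4 for PSME1, 489 ± 103 for PSME2, 380 ± 14.2 for PSMB8 and 357 ± 29.6 for PSMB9. It was 285 ± 3.57 for PSMB6, 251 ± 4.02 for PSMB7, 248 ± 51.3 for PSMB10 and 105 ± 16.9 for PSMB5. On this scale PSMB10 lay below PSMB6 and next to PSMB7, whereas in CPM it lay above both. PSMB8 stayed far above PSMB5 on both scales, by more than the spread of either.

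Each inducible subunit was then set against the subunit it replaces. PSMB8 had 3.02 times the reads of PSMB5 in replicate 1 (exact binomial interval 2.57 to 3.56) and 3.99 times in replicate 2 (3.38 to 4.73), a mean of 3.50 ± 0.689 (SD, n = 2). PSMB9 had 1.22 times the reads of PSMB6 (1.05 to 1.42) and 1.11 times (0.956 to 1.28), a mean of 1.16 ± 0.0820. PSMB10 had 1.38 times the reads of PSMB7 (1.19 to 1.59) and 1.05 times (0.907 to 1.21), a mean of 1.21 ± 0.231. The excess over the constitutive partner was thus clear of counting error in both libraries for PSMB8 and in replicate 1 alone for PSMB9 and PSMB10. The 3 inducible catalytic genes together had 1.70 and 1.65 times the reads of the 3 constitutive ones, a mean of 1.67 ± 0.0337.

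Which reads are counted changed these ratios for 2 of the 3 pairs. In reads of known models alone, which match an annotated transcript, PSMB9 over PSMB6 was 0.961 ± 0.120 and PSMB10 over PSMB7 was 3.36 ± 0.131 (SD, n = 2). Per kilobase, PSMB10 over PSMB7 was 0.990 ± 0.189. In known models PSMB7 had 120 and 84 of its 338 and 367 reads, and PSMB10 had 392 and 290 of its 465 and 385. PSMB8 over PSMB5 changed by less than its spread between the libraries under each of these counts.

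The reads of both partners were also summed at each of the 3 catalytic positions. PSMB8 and PSMB5 together had 590.3 and 584 CPM, PSMB9 and PSMB6 had 537 and 500.3 CPM, and PSMB10 and PSMB7 had 590.3 and 498 CPM. The means were 587 ± 4.17, 519 ± 26.2 and 544 ± 65.5 CPM (SD, n = 2). The PSMB8 position, with 803 and 883 reads, equalled the PSMB10 position in replicate 1 and exceeded both others in replicate 2, where they had 756 and 752 reads. The inducible share of the sums was 75.1% (Wilson interval 72.0 to 78.0%) and 79.95% (77.2 to 82.5%) at the PSMB8 position, 55.0% and 52.5% at the PSMB9 position and 57.9% and 51.2% at the PSMB10 position. In reads of known models alone, an alternative chosen after seeing the data, the shares were 77.0% and 82.5% at the PSMB8 position, 51.1% and 46.7% at the PSMB9 position and 76.6% and 77.5% at the PSMB10 position. The gap between the PSMB8 and PSMB10 positions thus depended on counting reads outside known models. Known models held 35.5% and 22.9% of the PSMB7 reads, against 84.3% and 75.3% of the PSMB10 reads. The known-only share at the PSMB10 position therefore leaves out most reads of PSMB7.

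The other 11 subunit genes of the core, PSMA1 to PSMA7 and PSMB1 to PSMB4, have no inducible counterpart here and had means of 185 to 445 CPM, with a median of 287. In each library the summed level of every catalytic position was above all 11. Per kilobase of known model, again a sensitivity check and no correction, the sums were 486 ± 2.69 (PSMB8 position), 642 ± 33.2 (PSMB9 position) and 499 ± 55.3 (PSMB10 position). The means of the 11 genes ran from 71.1 (PSMA4, whose known models averaged 4036 bases) to 482, with a median of 227. On this scale PSMB3 (521 and 442) and PSMB1 (505 and 401) lay above the PSMB8 position in replicate 1, where that sum was 488. No read was listed for PSMB11, the thymic catalytic subunit.

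**Figure D2:**
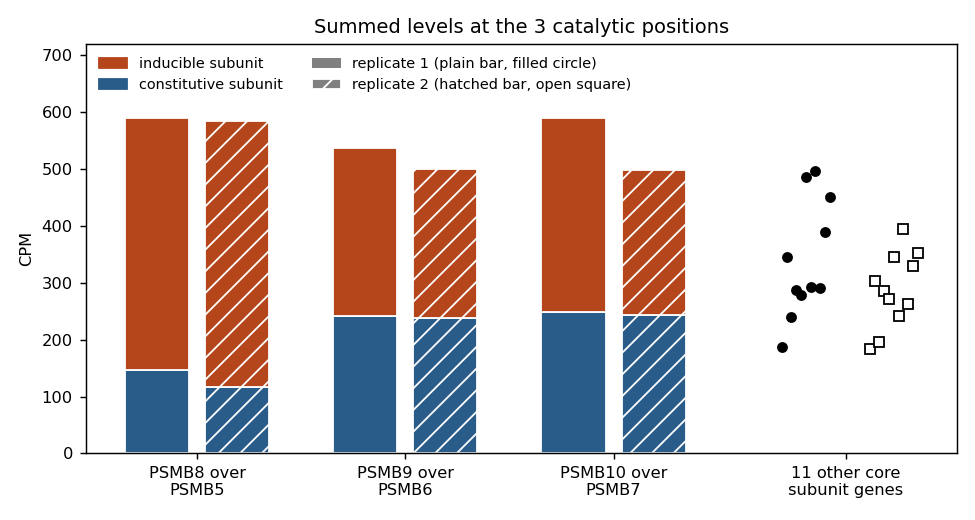
Summed CPM (vertical axis) of the inducible (red) and constitutive (blue) gene at each catalytic position, plain bars for replicate 1 and hatched bars for replicate 2, beside the 11 other core subunit genes (circles, replicate 1; squares, replicate 2). The sums lie between 498 and 590.3 CPM, and the red part is largest at the PSMB8 position.

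Levels of 2 of the 8 genes differed between the libraries, both lower in replicate 2. PSME2 had a log2 ratio of replicate 2 to replicate 1 of -0.43 (-0.56 to -0.30; adjusted p of 8.33e-09) and PSMB10 of -0.42 (-0.62 to -0.23; adjusted p of 0.00107), by exact binomial tests (two-sided, library totals as the expectation, Benjamini-Hochberg adjustment over all genes tested). By the same test 5.05% of the 10634 genes were called in either direction and 2.33% as lower in replicate 2. With a minimum of 20 reads in the 2 libraries together, 6.34% were called in either direction. Each member had at least 177 reads in each library, and the share among genes of such depth was not computed. With 8 members, 2 called is a small number to set beside these shares. The other 6 genes did not pass the threshold of 0.05: log2 ratios were -0.33 for PSMB5, -0.17 for PSMB9 and PSME1, -0.03 for PSMB6 and PSMB7, and 0.08 for PSMB8. The median log2 ratio was -0.17 for the 8 genes and 0.01 for all genes tested. In RNA of bulk cells, fewer cells that express a gene and less RNA per cell cannot be told apart. With reads of known models alone, 6 members passed, all lower, but the median of all genes was then -0.55 and 1681 of 5528 genes passed.

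The same test was read for the other genes of the pathway. Of the 11 other core genes 3 were called, all lower in replicate 2: PSMA6 (log2 ratio -0.49), PSMB1 (-0.33) and PSMB4 (-0.35), with a median of -0.24 over the 11. Among the regulators and assembly factors, 2 of 8 tested were lower, namely PSME3, the nuclear PA28 gamma activator (-0.43), and POMP, the maturation protein that assembles the core (-0.40). None of 4 tested genes of peptide transport, loading and trimming (TAP1, TAP2, TAPBP and ERAP1) passed the exact binomial test, and 1 had an unadjusted p under 0.05. ERAP2, an aminopeptidase that trims peptides, had 3 reads in each library and was not tested. IRF1 and NLRC5, transcriptional inducers of the MHC class I pathway, had 77 and 80 reads and 35 and 35 reads, and neither passed.

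PSMB8 and PSMB9 lie beside the peptide transporter gene TAP1. The 3′ end of TAP1 lies 505 bases from PSMB8. TAP1 overlaps the annotated span of PSMB9 by 8770 bases, and PSMB8 overlaps that span by 568 bases, both on the opposite strand. PSMB9-207, the only known PSMB9 model with reads, begins at 32854161. That lies past the highest annotated positions of PSMB8 (32844703) and TAP1 (32853978). In this cluster TAP1, whose product carries proteasome peptides into the endoplasmic reticulum, had 316 and 364 reads. PSMB8-AS1, an antisense RNA that overlaps PSMB8 by 618 bases, had 58 and 50 reads. Direct RNA reads keep the strand of the molecule, and the table holds a separate antisense category, but how strand was used in the assignment is not given in the sources used here.

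Besides known models, the table holds incomplete splice matches (ISM), whose junctions are a consecutive part of those of 1 annotated transcript; suffix ISM models keep its 3′ end. NIC models join annotated splice sites in a new way, NNC models have an unannotated splice site, and genomic models overlap a gene without its splicing. Pooled over the genes, known models took 71.2% and 61.4% of the inducible reads (66.3% ± 6.90, SD, n = 2) and 66.9% and 54.7% of the constitutive reads (60.8% ± 8.62). Both sets were read in the same 2 libraries, so these SDs do not compare them. The inducible share was the higher in each library. Wilson intervals overlapped in replicate 1 (69.6 to 72.7% against 63.7 to 69.9%) but not in replicate 2 (59.7 to 63.1% against 51.4 to 57.9%). They cover counting error only, and the difference was not tested. The constitutive set held both the lowest share of the 8 genes (PSMB7) and the highest (PSMB6). All annotated genes together stood at 56.5% and 46.4%, and the other core genes at 75.3% and 59.3%. Genomic models took at most 0.682% of inducible and 1.22% of constitutive reads, against 10.9% and 15.3% over all annotated genes.

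The known share was lower in replicate 2 than in replicate 1 in all 8 genes. In 7 of the 8 the difference passed the threshold (Fisher's exact test on reads, two-sided, adjusted over 6340 genes with at least 20 reads in each library). PSMB8 went from 85.4% to 73.9% (adjusted p of 6.52e-06), PSMB9 from 79.6% to 66.0%, PSMB10 from 84.3% to 75.3% and PSME1 from 59.8% to 44.0% (adjusted p of 5.61e-08). PSMB5 went from 77.0% to 62.7%, PSMB6 from 93.0% to 83.3% and PSMB7 from 35.5% to 22.9%, with adjusted p of 0.0164, 0.000883 and 0.00199. PSME2, at 62.0% and 57.5%, did not pass (adjusted p of 0.136). Over all 6340 genes 27.1% were called in either direction and 26.9% as lower, and 79.4% had a lower value in replicate 2. Each member had at least 177 reads in each library, and among the 3555 genes with at least 50 reads in each, 45.6% were called. Of the 11 other core genes 9 were called, all lower in replicate 2. The median difference was -12.0 percentage points for the 8 genes, -14.9 for the 11 other core genes and -8.62 for all genes.

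Suffix reads had the larger share in replicate 2. The suffix share was 5.31% and 11.6% in PSMB8, 20.1% and 39.3% in PSME1, 24.0% and 42.2% in PSMB7, and 3.04% and 13.4% in PSMB6, with no test of its own. It was 10.9% and 23.2% in PSMB9, 9.68% and 19.2% in PSMB10, 10.3% and 19.6% in PSME2, and 9.50% and 20.3% in PSMB5. The other core genes pooled stood at 12.7% and 27.1%, and all annotated genes at 16.4% and 21.9%, so the rise was not particular to the members. When known and suffix reads were counted together, 1 of the 8 genes, PSMB8, still differed between the libraries, and 9.92% of all genes did. In PSMB8 the single-exon ISM model ENCODEHT000587542 had 11 and 51 reads. Its 331 bases equal the length of the last exon of PSMB8-202. Likewise the PSMB8 suffix model of 3 exons (17 and 39 reads) had 666 bases, the sum of the last 3 exons. The table holds no coordinates, so these matches are of length only. A 4-exon suffix model of PSMB8, ENCODEHT000587540 (1484 bases), had 12 and 38 reads. Its length does not match the last 4 exons of PSMB8-202, which hold 778 bases.

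Incomplete models that reached 5% of the reads of the gene in a library were found in every member. In PSMB5 the 2-exon suffix model ENCODEHT000296307 had 19 and 36 reads (9.50% and 20.3% of PSMB5), and its 832 bases equal the last 2 exons of PSMB5-202. The single-exon PSMB5 model ENCODEHT000296278 had 7 and 12 reads, and its 525 bases equal the last exon. PSMB9 had 3 suffix models of this size: one of 2 exons (ENCODEHT000589991, 323 bases) with 11 and 31 reads, one of 3 exons (ENCODEHT000589986) with 14 and 21 and one of 4 exons (ENCODEHT000589978) with 10 and 21. PSMB10 had the 5-exon ENCODEHT000377917 with 10 and 23 reads, and PSME2 had the 8-exon ENCODEHT000303840 with 20 and 45. In PSMB6 the suffix models ENCODEHT000216114 (3 exons) and ENCODEHT000216093 (4 exons) had 6 and 19 and 3 and 21 reads. Among these models of PSMB9, PSMB10, PSME2 and PSMB6, only ENCODEHT000589991 equalled the last exons of the leading known model in length. The others differed, for example 620 against 585 bases in ENCODEHT000589978 and 634 against 638 in ENCODEHT000377917. Each of these incomplete models had more reads in replicate 2 than in replicate 1. All but ENCODEHT000296307 reached 5% in replicate 2 alone, so the way they were selected favoured this direction.

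**Figure D3:**
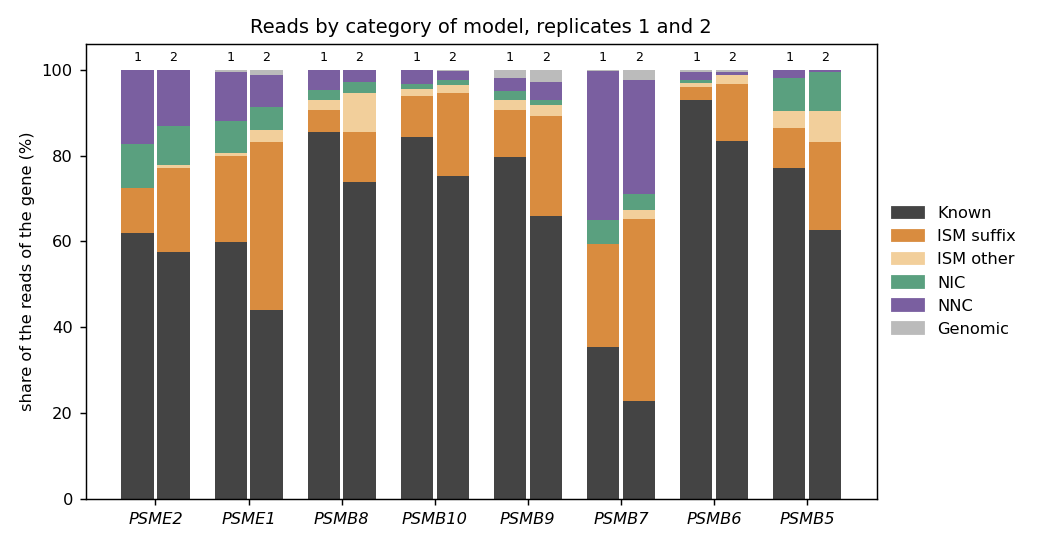
Share of the reads of each gene (vertical axis, percent) by category of model, with replicate 1 on the left and replicate 2 on the right of each pair. The known part (dark) is lower in replicate 2 in all 8 genes, and PSMB7 has the smallest known part, 35.5% and 22.9%.

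Reads with as many exons as the most abundant known model, or more, made up 82.3% and 62.2% of PSMB8, 82.3% and 69.8% of PSMB9, 86.5% and 74.3% of PSMB10, 69.7% and 51.0% of PSME1 and 69.98% and 62.4% of PSME2. For the constitutive genes the shares were 85.0% and 72.3% in PSMB5, 93.0% and 76.3% in PSMB6 and 74.3% and 49.6% in PSMB7. All 8 genes had the lower value in replicate 2. The range was widest in PSMB7, whose mean exon number per read was 7.15 and 6.11 of 8.

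PSMB8 was the member with the most evenly used known models. PSMB8-202, a coding model of 6 exons and 1124 bases, had 419 and 366 reads, or 81.4% and 70.1% of the known reads. PSMB8-201, the other coding model of 6 exons, begins upstream and has a different first exon; it had 39 reads in each library. The models differ in the coding sequence that their first exons join to the shared second exon. The last 30 coding bases of each first exon (chr6:32843850-32843879 for PSMB8-202 and chr6:32844279-32844308 for PSMB8-201, GRCh38, minus strand) are shown with the first 12 bases of the second exon in capitals.
PSMB8-202: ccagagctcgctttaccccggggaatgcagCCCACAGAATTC
PSMB8-201: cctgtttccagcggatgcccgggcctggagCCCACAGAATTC
The first exon of PSMB8-202 holds 147 coding bases and that of PSMB8-201 holds 135, which gives 276 and 272 codons. The start with the ISRE letters shown above is that of PSMB8-202; the window at the upstream start had none.

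The remaining known PSMB8 reads lay in models annotated as retained intron. PSMB8-205, of 2 exons, had 32 and 71 reads, PSMB8-206, of 5 exons, had 25 and 45, and PSMB8-204 had 0 and 1. Together they made up 11.1% of the known reads in replicate 1 (8.64 to 14.1%) and 22.4% in replicate 2 (19.0 to 26.2%). Retained-intron models held 1.96% and 9.03% of the known reads of PSMB6, 1.28% and 4.83% of PSMB10, and 0.305% and 3.20% of PSME2. They had 1 read in PSME1, and none in PSMB9, PSMB5 and PSMB7. Over all annotated genes the values were 4.24% and 7.07%. This class was singled out after its values were seen and carries no test. PSMB8-205 is also the shortest known model of the gene with reads, at 835 bases, and reads of PSMB8 had 5.50 exons on average in replicate 1 and 4.85 in replicate 2; the part of this in the difference was not tested.

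**Figure D4:**
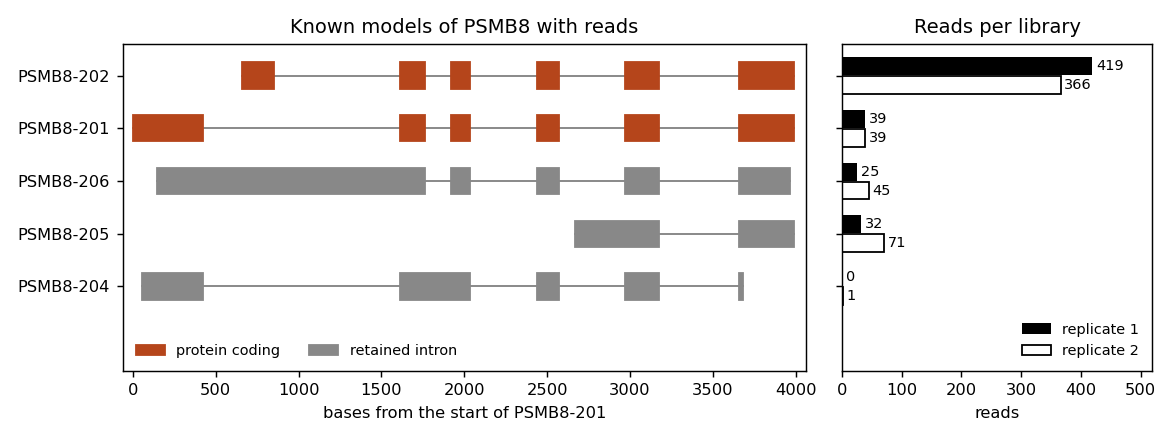
Left, exons (boxes) of the 5 known PSMB8 models with reads, by distance in bases from the start of PSMB8-201, with coding models in red and retained-intron models in grey; right, their reads in replicate 1 (black) and replicate 2 (white). PSMB8-202 leads with 419 and 366 reads, and PSMB8-205 has 32 and 71.

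The other members each used 1 known model for over 90.9% of their known reads. PSMB9-207 (6 exons, 782 bases) had 320 and 262 reads and was the only known model of PSMB9 read, of 5 annotated. PSMB10-201 (8 exons) had 387 and 276 reads, PSME1-201 (11 exons) had 431 and 309, and PSME2-201 (11 exons) had 642 and 471. PSMB5-202 (3 exons) had 145 and 103 reads and PSMB6-201 (6 exons) had 299 and 272. PSMB7-201 (8 exons, 980 bases), the only known model of PSMB7 with reads out of 6 annotated, had 120 and 84.

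NNC reads had their largest share in PSMB7. These made up 34.6% and 26.4% of its reads, against 4.38% and 3.14% over all annotated genes. The largest NNC model, ENCODEHT000589744, also had 8 exons and was 3 bases shorter than PSMB7-201; it had 81 and 59 reads. A second, ENCODEHT000589736, was 6 bases shorter and had 25 and 19 reads. Since the table holds no coordinates, the junction that differs cannot be named. Among 5-exon suffix models of PSMB7, one of 712 bases had 15 and 29 reads and one of 709 bases, again 3 shorter, had 10 and 20. The 712 bases equal the last 5 exons of PSMB7-201. A 2-exon suffix model, ENCODEHT000589747 (390 bases, against 396 in the last 2 exons of PSMB7-201), had 14 and 35 reads.

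NNC models were also frequent in the activator genes. PSME2 had 17.1% and 13.1% of its reads there, and PSME1 had 11.3% and 7.47%. In PSME2 the NNC model ENCODEHT000303819 (10 exons, 786 bases) had 113 and 74 reads and was the most abundant NIC or NNC model of the gene. In PSME1 the 8-exon suffix model ENCODEHT000303153 (681 bases) had 52 and 99 reads, and the NNC model ENCODEHT000300634 had 24 and 21. PSMB5 had a NIC model of 3 exons, ENCODEHT000296295, with 14 and 15 reads. The leading NIC or NNC models of the inducible catalytic genes were smaller: ENCODEHT000587564 of PSMB8 (NIC, 6 exons) had 7 and 11 reads, ENCODEHT000589617 of PSMB9 (NIC, 5 exons) 8 and 5, and ENCODEHT000377965 of PSMB10 (NNC, 8 exons) 5 and 4. In PSMB6 the leading one, ENCODEHT000215095 (NNC), had 2 reads and 0. In PSMB5 and PSMB6 the NNC share was at most 2% in either library.

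PSME1 and PSME2 also had the most models, 143 and 144, of which 89 and 95 rested on a single read. PSMB5, with 3 exons, had 14 models, and 5 of them rested on a single read. PSMB8 had 45, PSMB9 30, PSMB10 37, PSMB6 22 and PSMB7 69. Models read in both libraries numbered 37 for PSME1, 41 for PSME2, 23 for PSMB7, 21 for PSMB8, 15 for PSMB10, 12 for PSMB9, 8 for PSMB6 and 7 for PSMB5.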

How the data were processed

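The authors deposited 1 table of raw counts of long reads, with 1 row per transcript model and 1 column per library; the exon number and length of each model were deposited in the same table. Per the submitters' processing notes the tools include minimap2 and the build is hg38; by its name the table comes from TALON. Read filters and other versions are not given in the sources used here. All 23533 known models matched GENCODE release 29 in identifier, length and exon number, which gave positions and exons. Gene counts were summed over all models of an annotated gene. CPM used library totals. Log2 ratios had 0.5 reads added. Intervals are at 95%, from exact Poisson limits for levels and exact binomial or Wilson limits for ratios and shares. Genes with at least 10 reads in both libraries together were tested with two-sided exact binomial tests, and known shares with Fisher's exact test in genes with at least 20 reads in each library (scipy 1.17.1), adjusted by Benjamini-Hochberg, with calls at 0.05. Both were tried on simulated counts in which the libraries differed only by counting error and by set differences in chosen genes. That setting holds no wider spread between libraries. Alternative scalings came from edgeR 4.0.16 (TMM) and DESeq2 1.42.0; neither can test 1 group. Models were named if they led the known models, held 5% of the reads of a gene in either library, or led its NIC and NNC models. The members and lists were chosen with earlier results of these data known. With 2 libraries no pattern across conditions exists, so no gene was sought whose pattern is like that of a member. PSMB6 and PSMB7 had no promoter window. A gene of the inducer list is not reported here.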

Additional observations from a re-analysis of the deposited data

How the results depend on the processing

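No paired analysis was possible because both libraries belong to 1 group. Without 1 of the replicates, only the other library's value is left, which the report prints and which says nothing about stability. Of 48 log2 ratios of the members under alternatives, 41 kept their sign and their side of the threshold, 5 passed it newly and 2 changed sign. Under TMM, DESeq2 scaling, other minimum reads, and without genomic or single-read models, PSME2 and PSMB10 stayed the members called. With known models only, 6 members passed (PSMB9, PSMB10, PSME1, PSME2, PSMB5 and PSMB7), and the log2 ratio of PSMB8 was -0.13; relative to the median of all genes, -0.55, it lay higher. Of all genes 1681 (156 higher, 1525 lower) then passed in place of 537 (289 higher, 248 lower). Scaled by known-model totals, an alternative chosen after seeing the data, 3 members passed (PSMB10, PSME1 and PSME2), PSMB6 was at 0.10, and 1042 genes passed (324 higher, 718 lower) around a median of -0.26. Without genomic models 827 genes passed (220 higher, 607 lower) around a median of -0.15. With known models only, PSMB9 over PSMB6 was 0.961, PSMB10 over PSMB7 3.36 and the 3 inducible over the 3 constitutive genes 2.14; per kilobase these ratios were 1.25, 0.990 and 1.54. In known models the inducible share, chosen after seeing the data, averaged 48.9% in place of 53.8% at the PSMB9 position and 77.1% in place of 54.6% at the PSMB10 position. With known and suffix models together, 1 member in place of 7 and 629 genes in place of 1721 differed in their share. The median share of the most abundant known model, 96.4% ± 2.49 (SD, n = 2) of known reads, was 78.6% of known, NIC and NNC reads and 63.6% of all reads of the gene. At this depth a log2 ratio of PSMB5 is known to within -0.63 to -0.03, the widest interval of the members.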
